A study of Mus musculus with 11 samples.

Results

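Autophagy, ER-phagy and lysosome genes were followed in mouse Leydig tumor cells (MLTCs, line MLTC-1) in which *Mamld1* had been knocked down. The genes were a list of 42, running from ER-phagy receptors to lysosomal enzymes, and the list was chosen by the array signal of 1 of them, *Retreg1* (older name *Fam134b*), which fell with both siRNAs. Probes were found by RefSeq accession for 41 of the 42 genes, of 17016 genes named on the array, and *Atg9a* was not matched. The control group was 4 arrays of MLTCs given the non-targeting RNA 4611G, and the knockdown groups were 4 arrays with siRNA1 and 3 arrays with siRNA2, which target *Mamld1* with different sequences. Every group received 20 nM RNA with Lipofectamine RNAiMAX and was harvested after 48 hours. The methods add that hCG was given shortly before harvest, which the labels do not mention. MLTCs are a cultured tumor line, and the labels do not say whether arrays of a group came from separate cultures, so p-values measure the spread between these arrays, which may be technical. Levels are RNA only, and neither protein nor autophagic flux was measured.

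Autophagy encloses cytoplasm in a double membrane and delivers it to lysosomes. The Ulk kinases start the process, the Becn1 and Vps34 complex makes the lipid PI3P, Wipi proteins read that lipid, and the Atg conjugation enzymes attach Atg8 proteins such as LC3 to the growing membrane. Receptors then tie cargo to the Atg8 proteins. Retreg1 is such a receptor for ER sheets, in a process called ER-phagy. Tfeb and Tfe3 are transcription factors known to raise lysosome and autophagy genes. Leydig cells are steroid-producing cells rich in smooth ER and are known for active autophagy in the testis.

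The values are signal intensities of single-color arrays, scaled to each array's 75th percentile and given here for each probe as a percent of its control level, the geometric mean over the 4 control arrays. The 75th percentile was 470 to 582 in control, 601 to 774 with siRNA1 and 488 to 579 with siRNA2, and 58.6 to 62.6% of probes per array were well above background. *Mamld1* itself lay at 46.6, 77.0, 48.1 and 44.1% with siRNA1 and at 45.3, 68.6 and 65.5% with siRNA2, below the lowest control array (85.2%). Leydig cell markers were well above background on every array for 7 of 7 genes, and their summed level (in units of the 75th percentile) was 362 to 473 in control, 330 to 380 with siRNA1 and 391 to 471 with siRNA2. Of 11 macrophage markers matched, 8 were above background on no array, among them *Ptprc* and *Adgre1*, and 2 on all arrays (*Cd14* and *C1qb*), with sums of 0.242 to 0.254, 0.202 to 0.262 and 0.211 to 0.239. Of 5 Sertoli markers *Sox9* and *Wt1* were on no array, *Amh* and *Dhh* on all, and the sum was higher with siRNA2 (4.22 to 5.08) than in control (2.72 to 3.04) or with siRNA1 (2.45 to 3.04). Of 4 endothelial markers only *Cdh5* was on all arrays and *Tek* and *Kdr* on none, and the sum was higher with siRNA1 (1.27 to 1.76) and siRNA2 (1.11 to 1.35) than in control (0.640 to 0.705). Of the 3 smooth muscle markers *Acta2* was on all arrays, with overlapping sums. The part of these marker levels in the results below was not tested. The arrays lay on 3 slides, each with all 3 groups, and 0 spots were saturated.

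*Retreg1* was the member that fell furthest, and it chose the list, so its values are a description without a test. On its brighter probe, the control arrays read 125, 84.5, 81.4 and 116%. The siRNA1 arrays read 46.3, 52.0, 55.1 and 27.6%, and the siRNA2 arrays 50.5, 21.9 and 18.0%. No knockdown array overlapped the control arrays. The mean was 102% ± 22.1 (SD, n = 4) in control, 45.3% ± 12.3 (SD, n = 4) for siRNA1 and 30.2% ± 17.7 (SD, n = 3) for siRNA2. The mean log2 signal differed from control by -1.19 for siRNA1 and -1.88 for siRNA2. Since 1 of 3 siRNA2 arrays and 3 of 4 siRNA1 arrays were well above background on this probe, these differences are measured partly against background. The siRNAs overlapped each other. In cultured cells, fewer cells of a type and less RNA per cell cannot be told apart on such arrays.

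The other *Retreg1* probe, designed to transcript variant 2, read 99.9, 80.9, 99.5 and 124% in control. It read 37.4, 16.7, 28.1 and 9.06% with siRNA1 and 17.1, 20.3 and 25.7% with siRNA2. These are dim spots. The control arrays were well above background on both probes, but on the second probe 0 of 4 siRNA1 arrays and 0 of 3 siRNA2 arrays were. The lowest signal well above background was 6.94 to 8.90 per array, and the mean signals of the second probe were 18.4, 5.34 and 4.01 in control, siRNA1 and siRNA2. Its fall is therefore given as a rough lower bound, 2.79-fold for siRNA1 and 2.44-fold for siRNA2. That bound sets the control mean against the lowest signal well above background on each siRNA array, or the spot's own signal where that was higher. The lowest signal is taken over all probes of an array and is not a limit of this probe.

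**Figure D1:**
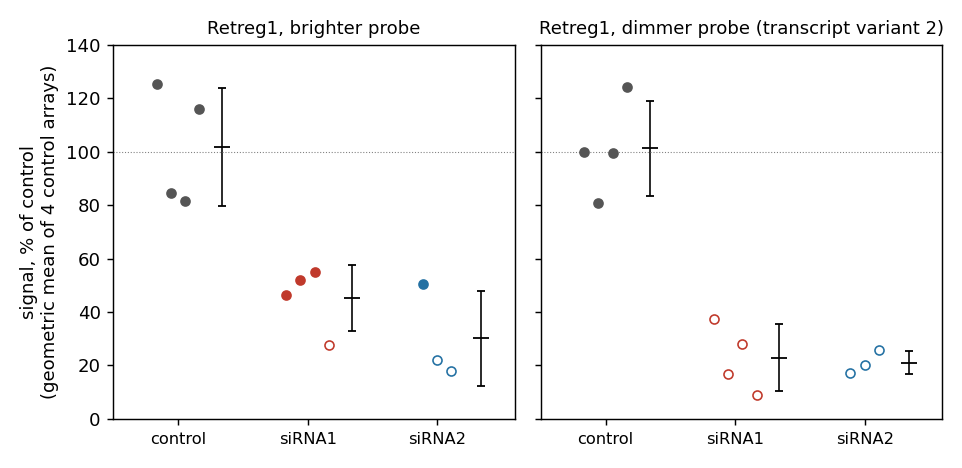
Signal of the 2 *Retreg1* probes on each array, in percent of the control level of the same probe, for control (grey), siRNA1 (red) and siRNA2 (blue). Open circles are spots not well above background, and the bar beside each group is its mean ± SD. All siRNA arrays lie at 55.1% or lower and all control arrays at 80.9% or higher.

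Within slides, which compare arrays hybridized side by side, *Retreg1* was lower with both siRNAs on each of the 3 slides. That sign is no separate result, since all siRNA arrays lay below all control arrays. The brighter probe differed by -1.15, -0.61 and -2.07 log2 units with siRNA1 and by -1.03, -1.89 and -2.69 with siRNA2. With most siRNA2 spots not well above background, the sizes are uncertain and the siRNAs are not ranked.

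Across the remaining members the changes were small and ran both ways. Of the 40 other members with a probe, all of which passed the filter on dim probes, 8 passed the test with siRNA1 (3 higher and 5 lower), where passing means a limma adjusted p of 0.05 or less at the gene's brightest probe. That is 20% of them, against 29.3% of all 11818 genes tested (10.6% higher and 18.7% lower). With siRNA2 also 8 passed (1 higher and 7 lower), against 20.2% of all genes (8.02% higher and 12.2% lower). The totals were at or under the background for both siRNAs, as was the share lower with siRNA1 (12.5%), while the share lower with siRNA2 (17.5%) was above its background. The 7 genes of that share include *Map1lc3b*, and they were 5 under median scaling and 4 without siRNA2 array 1 or 2. Its gap to the background was not tested. At the brightest probe *Uvrag* and *Map1lc3b* were lower with both siRNAs and none was higher with both, against 5.21% of all genes lower and 3.85% higher with both. Of these *Map1lc3b* has no direction as a gene, since another of its probes was higher with both. *Uvrag* has a single probe, so no other probe could be compared. In any of the 3 comparisons 16 of the 40 passed, against 43.8% of all genes.

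Directly between siRNA1 and siRNA2, 10 of the 40 members differed (6 higher and 4 lower with siRNA1), against 26.3% of all genes (11.8% higher and 14.4% lower). The largest change from control was 0.89 log2 units, so 0 of the 40 reached a fold of 2 against control in the limma fit, at any p. Of all genes, those past both an adjusted p of 0.05 and a fold of 2 were 0.829% higher and 2.23% lower with siRNA1, 0.643% and 1.78% with siRNA2, and 1.84% and 1.69% between the siRNAs. Between the siRNAs 0 of the 40 members reached it either, the largest difference being that of *Wipi1*, given below. The median log2 change of the 40 members was -0.07 with siRNA1 and -0.04 with siRNA2, and that of all genes -0.08 and -0.02. The comparisons with siRNA1 and siRNA2 share the same 4 control arrays.

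With the slide as a block in the fit the count with siRNA1 was 13 (3 higher and 10 lower), because *Neu1*, *Ctsl*, *Lamp1*, *Hexa* and *Tfe3* then passed as lower. Of all genes 38.6% passed under the same block (14% higher and 24.6% lower). With siRNA2 it was 9, *Ulk2* added as higher, against 28% of all genes, and between the siRNAs 12, with *Neu1* and *Atg5* added, against 35.6%. All 26 calls given below kept their side of the threshold under that block.

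**Figure D2:**
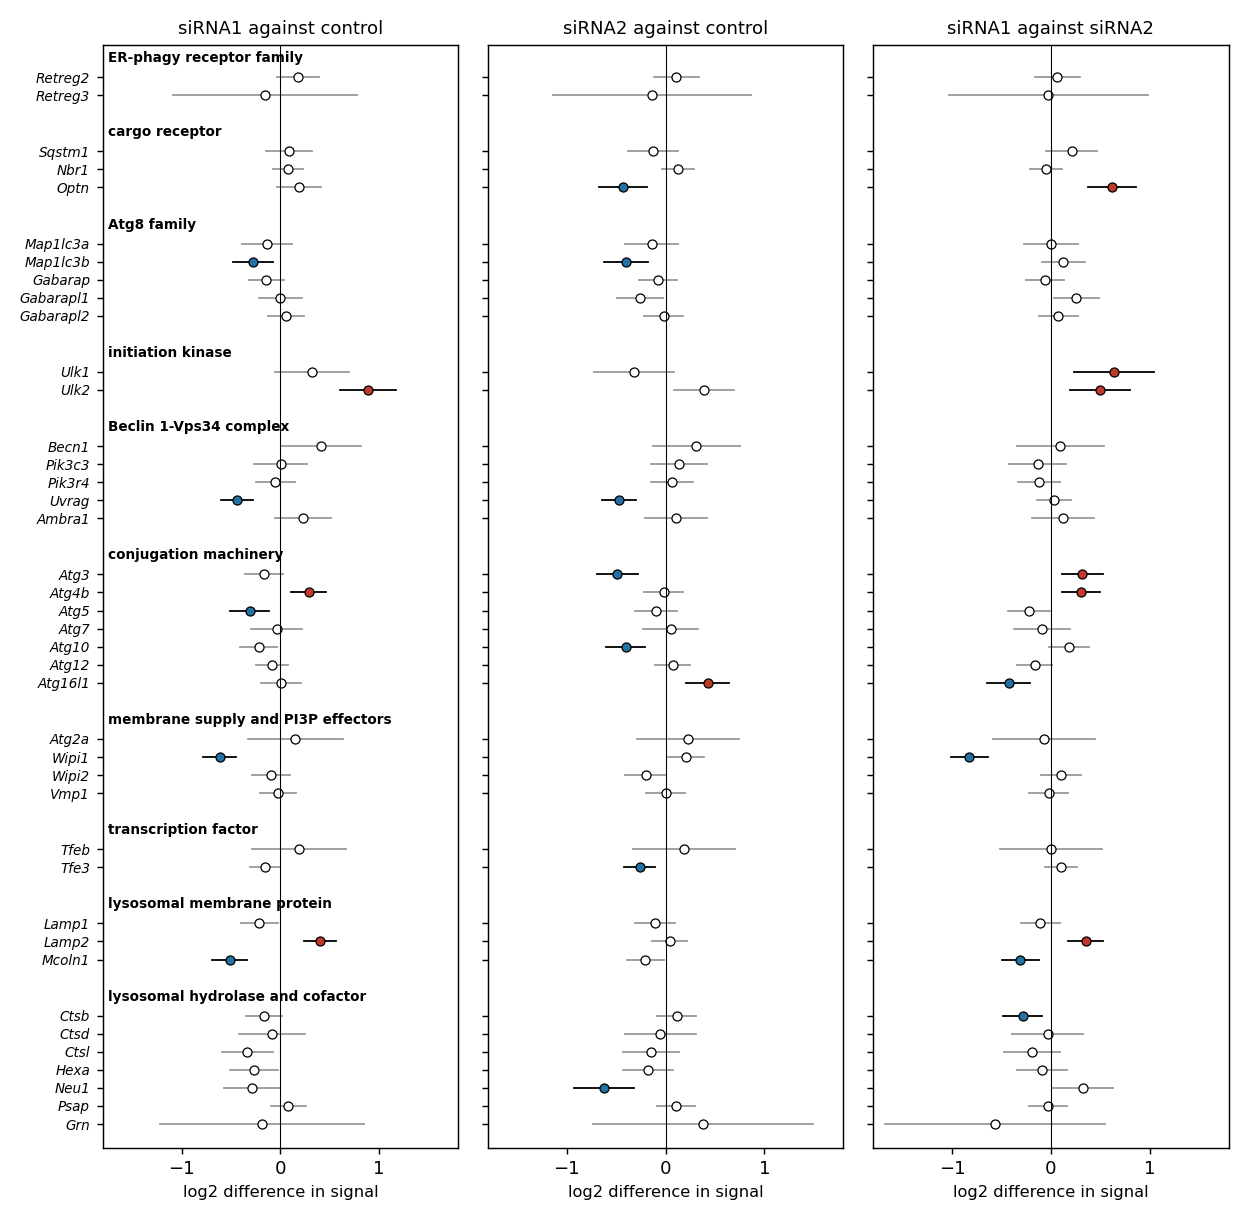
Log2 difference in signal at the brightest probe for the 40 members other than *Retreg1*, by role, with siRNA1 against control, siRNA2 against control and siRNA1 against siRNA2. Lines are 95% confidence intervals, filled points passed the test (red higher, blue lower) and open points did not. The filled points number 8, 8 and 10, and the intervals of *Retreg3* and *Grn* are the widest.

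Neither of the other *Retreg* genes, *Retreg2* and *Retreg3*, passed the test. *Retreg2* read 117, 117, 114 and 104% with siRNA1 and 112, 109 and 102% with siRNA2, against 104, 83.5, 104 and 111% in control. The groups overlapped, with log2 changes of 0.17 (95% confidence interval -0.04 to 0.39) and 0.11 (-0.12 to 0.34). *Retreg3* showed a different pattern, in which the first array of each group stood high. Its control arrays read 207, 75.7, 85.5 and 74.8%, its siRNA1 arrays 172, 67.0, 71.5 and 78.1% and its siRNA2 arrays 166, 60.8 and 74.9%. Those first arrays share 1 slide, but control array 2, on the same slide, did not stand high. The differences of -0.16 (-1.09 to 0.77) and -0.14 (-1.14 to 0.87) therefore had intervals too wide to show a change of 1 log2 unit downward or its absence. On the second *Retreg3* probe the first array was the highest in each group as well, at a smaller spread.

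Cargo receptors tie ubiquitin-marked proteins and organelles to the Atg8 proteins. *Optn*, the receptor optineurin, differed between the siRNAs. It read 94.8, 99.5, 108 and 98.4% in control, 93.2, 115, 126 and 124% with siRNA1 and 71.9, 78.5 and 72.5% with siRNA2. The siRNA2 arrays lay below all others. The log2 change was -0.43 ± 0.11 (SE) with siRNA2 (limma adjusted p = 0.0199) and 0.19 with siRNA1 (adjusted p = 0.204), and the siRNAs differed by 0.62 ± 0.11 (adjusted p = 0.00210). The call against control was lost without control array 3, siRNA2 array 1 or siRNA2 array 3 (adjusted p = 0.0553 to 0.0635), and the difference between the siRNAs stood without any 1 array. *Sqstm1*, or p62, gave 0.09 (-0.15 to 0.32) and -0.13 (-0.38 to 0.13). *Nbr1* gave 0.08 (-0.07 to 0.23) and 0.12 (-0.04 to 0.28) at its brightest probe, while a dimmer probe was higher with siRNA1, at 0.34 (adjusted p = 0.0372).

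Among the 5 Atg8 proteins, *Map1lc3b*, which encodes LC3B, passed the test with both siRNAs, but its probes disagreed. The brighter probe read 101, 94.1, 92.2 and 114% in control, 80.0, 91.2, 77.4 and 82.9% with siRNA1 and 70.5, 76.4 and 80.8% with siRNA2. All knockdown arrays lay below all control arrays, by -0.27 ± 0.09 (SE) with siRNA1 (limma adjusted p = 0.0484) and -0.40 ± 0.10 with siRNA2 (adjusted p = 0.0169). The dimmer probe, with the same RefSeq accession, read 92.6, 98.7, 101 and 108% in control, 140.3, 149, 149 and 170.2% with siRNA1 and 136, 133 and 148% with siRNA2. It lay above all control arrays in both groups, by 0.60 ± 0.09 (adjusted p = 0.000437) and 0.47 ± 0.09 (adjusted p = 0.00461). The mean over both probes was 0.16 and 0.04, so no direction is given for *Map1lc3b* as a gene. It was the only member whose probes passed in opposite directions against control with the same siRNA.

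The fall on the brighter *Map1lc3b* probe with siRNA1 was also lost in 9 of the 11 fits without 1 array, namely each except those without control array 3 or siRNA1 array 2 (adjusted p = 0.0508 to 0.131 in the 9). With siRNA2 it was lost without siRNA2 array 1 or 2 (adjusted p = 0.0659 and 0.0553). The other 4 Atg8 genes did not pass. *Map1lc3a* gave -0.14 (-0.39 to 0.11) and -0.14 (-0.41 to 0.13), *Gabarap* -0.14 (-0.32 to 0.04) and -0.08 (-0.27 to 0.11), and *Gabarapl2* 0.06 (-0.13 to 0.24) and -0.02 (-0.22 to 0.18). *Gabarapl1* gave 0.00 (-0.21 to 0.21) with siRNA1 and -0.26 (-0.49 to -0.03) with siRNA2, and its dimmer probe differed between the siRNAs by 0.38 (adjusted p = 0.0172).

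**Figure D3:**
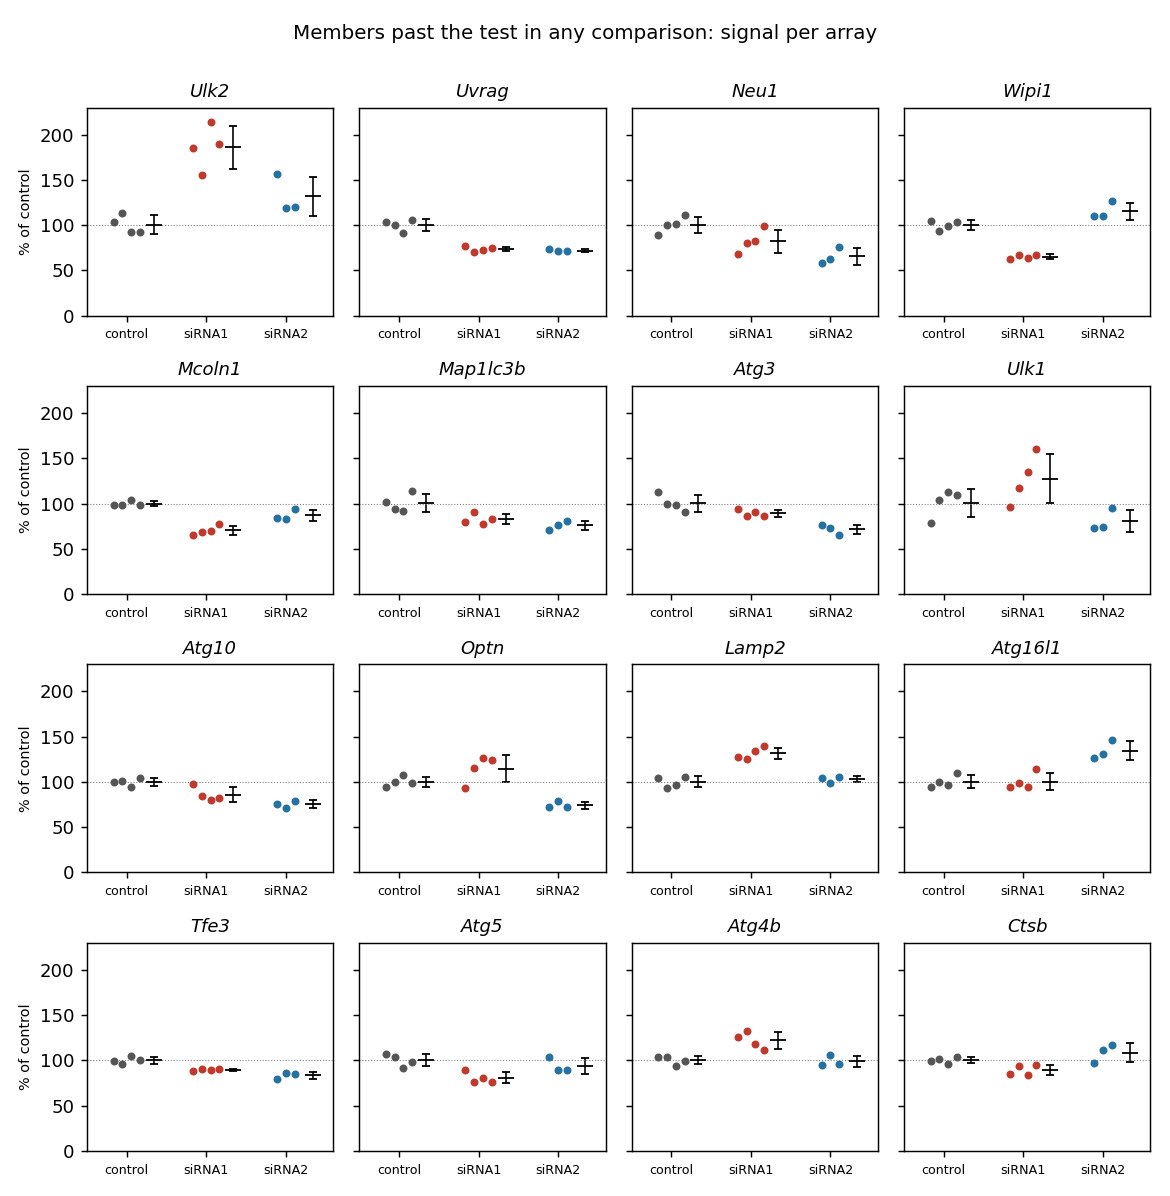
Signal on each array, in percent of the control level, for the 16 members past the test in any of the 3 comparisons, at their brightest probe. Points are arrays of control (grey), siRNA1 (red) and siRNA2 (blue), and bars are mean ± SD. *Ulk2* reaches 214% with siRNA1, whereas the members that fell stay at 58.0% or above.

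*Ulk2*, a kinase that starts autophagosome formation, rose most of the 40. It read 104, 114, 92.2 and 92.0% in control, 185, 156, 214 and 189.9% with siRNA1 and 156, 119 and 120.2% with siRNA2. Both knockdown groups lay above all control arrays. The log2 change was 0.89 ± 0.13 (SE) with siRNA1 (limma adjusted p = 0.000455) and 0.39 ± 0.14 with siRNA2 (adjusted p = 0.0771, and 0.0347 with the slide as a block). The siRNAs differed by 0.50 (adjusted p = 0.0216), a call that was lost in the fits that left out siRNA1 array 3, siRNA2 array 2 or siRNA2 array 3 (adjusted p = 0.0621 to 0.0923). A second *Ulk2* probe gave 0.84 and 0.38.

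Its relative *Ulk1* differed between the siRNAs but from control with neither. The control arrays read 78.4, 103, 113 and 109%, the siRNA1 arrays 96.5, 117, 135 and 160.2% and the siRNA2 arrays 72.5, 74.6 and 95.2%. The siRNA1 arrays all lay above the siRNA2 arrays, and both groups overlapped control. The difference between the siRNAs was 0.64 ± 0.18 (SE; limma adjusted p = 0.0262), against changes of 0.32 (-0.05 to 0.70) and -0.32 (-0.72 to 0.08) from control. It was lost in the fits that left out array 3 or 4 of siRNA1 or array 1 or 2 of siRNA2 (adjusted p = 0.0609 to 0.0923). The second probe gave 0.76 between the siRNAs (adjusted p = 0.0137).

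*Uvrag*, a subunit of the Vps34 complex that acts in autophagosome maturation and endosome traffic, was the member with a like fall with both siRNAs and a single probe. It read 104, 100.3, 91.0 and 106% in control, 76.7, 70.8, 72.7 and 74.5% with siRNA1 and 73.8, 71.1 and 71.0% with siRNA2. All 7 knockdown arrays lay below all control arrays. The log2 change was -0.44 ± 0.07 (SE) with siRNA1 (limma adjusted p = 0.00122) and -0.47 ± 0.08 with siRNA2 (adjusted p = 0.00175), and the siRNAs differed by 0.03 (-0.14 to 0.21). Within slides it was lower on all 3, between -0.34 and -0.50 for siRNA1 and between -0.35 and -0.57 for siRNA2. The sign follows from the lack of overlap with control. Neither call was lost without any 1 array.

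The other members of the complex did not pass. *Becn1*, its core scaffold, read 65.1, 118, 106 and 123% in control, 154, 136, 129.6 and 115% with siRNA1 and 134, 128 and 112% with siRNA2. Control array 1 stood below the rest, and the groups otherwise overlapped, with 0.41 (0.00 to 0.82) and 0.31 (-0.13 to 0.75). *Pik3c3*, the lipid kinase Vps34 itself, gave 0.00 (-0.26 to 0.27) and 0.13 (-0.15 to 0.42). *Pik3r4* gave -0.05 (-0.25 to 0.14) and 0.06 (-0.15 to 0.27), and *Ambra1* 0.23 (-0.06 to 0.52) and 0.10 (-0.21 to 0.41).

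In the conjugation machinery 5 of 7 genes passed in some comparison, where 43.8% of all genes did, and none with both siRNAs. *Atg3*, the E2-like enzyme that attaches Atg8 proteins to lipid, read 113, 99.4, 97.9 and 91.1% in control, 93.8, 86.1, 90.2 and 86.3% with siRNA1 and 76.1, 72.5 and 65.8% with siRNA2. The siRNA2 arrays lay below all others. The change was -0.49 ± 0.09 (SE) with siRNA2 (limma adjusted p = 0.00403) and -0.17 (-0.36 to 0.02) with siRNA1, and the siRNAs differed by 0.32 (adjusted p = 0.0286). That difference was lost in the fits that left out array 1 or 3 of siRNA1 or array 2 or 3 of siRNA2 (adjusted p = 0.0677 to 0.118), and with the mean over both probes (0.31, adjusted p = 0.0938). The second *Atg3* probe did not pass with siRNA2, at -0.33 (adjusted p = 0.215).

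*Atg10*, the E2-like enzyme for Atg12, read 99.9, 101, 94.4 and 105% in control, 97.9, 84.3, 80.0 and 82.2% with siRNA1 and 76.0, 71.5 and 79.5% with siRNA2. It fell with siRNA2 by 0.40 on the log2 scale (limma adjusted p = 0.00996), and the siRNA2 arrays were below all others. Its change with siRNA1 was -0.22 (-0.41 to -0.04; adjusted p = 0.0755), and the second probe passed with siRNA2 as well (-0.34, adjusted p = 0.0486). Without siRNA2 array 2 the adjusted p was 0.0535.

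*Atg16l1*, which places the conjugation complex on membranes, was the 1 member that passed as higher with siRNA2 at its brightest probe. It read 94.0, 100.2, 96.6 and 110.01% in control, 93.9, 99.0, 94.6 and 114% with siRNA1 and 126, 131 and 147% with siRNA2. The siRNA2 arrays lay above all others. The change was 0.43 ± 0.10 (SE) with siRNA2 (limma adjusted p = 0.0122) and 0.00 (-0.20 to 0.21) with siRNA1, and the siRNAs differed by -0.42 (adjusted p = 0.00991). Without siRNA2 array 3 the change with siRNA2 was 0.37 (adjusted p = 0.0535).

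*Atg4b*, the protease that primes Atg8 proteins, and *Atg5*, a core conjugation protein, passed with siRNA1 in opposite directions. *Atg4b* read 104, 104, 94.1 and 98.9% in control, 126, 133, 118 and 112% with siRNA1 and 94.4, 106 and 95.9% with siRNA2. Its siRNA1 arrays lay above all others, with a change of 0.29 ± 0.08 (SE; limma adjusted p = 0.0238) and a difference between the siRNAs of 0.31 (adjusted p = 0.0276). Its second probe ran the other way without passing, at -0.17 (-0.39 to 0.05) with siRNA1, and the mean over both probes was 0.06 against control (adjusted p = 0.646) and 0.06 between the siRNAs (adjusted p = 0.695). *Atg5* read 107, 104, 91.7 and 98.0% in control, 89.4, 76.5, 80.3 and 76.6% with siRNA1 and 104, 89.0 and 88.9% with siRNA2. Its siRNA1 arrays lay below all control arrays, by -0.31 ± 0.09 (adjusted p = 0.0241). Both calls lay near the threshold, with changes that stayed about as large without 1 array (0.24 to 0.28 for *Atg4b* against control and -0.31 to -0.28 for *Atg5* where the call was lost). *Atg4b* against control was lost without control array 3 or 4 or siRNA1 array 1 or 2 (adjusted p = 0.0569 to 0.0693), and against siRNA2 without array 1 or 2 of siRNA1 or array 1 or 3 of siRNA2 (adjusted p = 0.0638 to 0.0914). *Atg5* was lost without control array 1 or 2 or siRNA1 array 2, 3 or 4 (adjusted p = 0.0562 to 0.0665). *Atg7*, the E1-like enzyme, gave -0.04 (-0.30 to 0.22) and 0.05 (-0.23 to 0.33), and *Atg12* -0.09 (-0.25 to 0.08) and 0.07 (-0.10 to 0.25).

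*Wipi1*, a PI3P-binding protein of the early autophagosome, showed the clearest difference between the siRNAs. It read 105, 93.4, 98.9 and 103% in control, 63.0, 67.5, 63.3 and 67.3% with siRNA1 and 110.2, 110.2 and 126% with siRNA2. The siRNA1 arrays lay below and the siRNA2 arrays above all control arrays. The change was -0.62 ± 0.08 (SE) with siRNA1 (limma adjusted p = 0.000202) and 0.21 (0.02 to 0.39; adjusted p = 0.120) with siRNA2, and the siRNAs differed by -0.82 ± 0.08 (adjusted p = 5.46e-05). Within slides that difference was -0.81, -0.75 and -0.91. The second probe gave -0.52 and 0.33, with a difference of -0.85. Neither call was lost without any 1 array.

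Other membrane and PI3P genes stayed within their errors. *Wipi2* gave -0.10 (-0.29 to 0.09) and -0.20 (-0.41 to 0.00). *Vmp1*, an ER protein of autophagosome formation, gave -0.02 (-0.20 to 0.16) and 0.00 (-0.20 to 0.20). The lipid transfer gene *Atg2a* had wide intervals, at 0.15 (-0.33 to 0.63) and 0.22 (-0.29 to 0.74).

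Of the transcription factors, *Tfe3* was slightly lower with siRNA2. It read 98.9, 95.8, 105 and 100.2% in control, 88.2, 90.5, 89.7 and 90.2% with siRNA1 and 79.4, 85.7 and 85.1% with siRNA2. The 3 groups did not overlap. The change was -0.26 ± 0.07 (SE) with siRNA2 (limma adjusted p = 0.0273) and -0.16 (-0.31 to -0.01; adjusted p = 0.108) with siRNA1, which passed with the slide as a block (adjusted p = 0.0373). The siRNA2 call was lost without control array 1, 3 or 4 or any 1 siRNA2 array (adjusted p = 0.0548 to 0.0934). *Tfeb* varied widely between arrays, with 0.19 (-0.29 to 0.67) and 0.18 (-0.33 to 0.70).

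Tfeb and Tfe3 are known to bind the CLEAR element, an E-box in lysosome gene promoters. The letters GTCACGTG, which contain the E-box CACGTG, were searched on either strand in RefSeq promoter windows (build GRCm38.p6, 250 bases before to 50 after each start). Of the 42 members 36 have a window, and 7 hold the letters (19.4%), against 2.55% of 27025 genes. Because *Retreg1* has 4 start windows, the count by window was 7 of 46 (15.2%), against 2.25% of all windows. The shorter CACGTG was in 25% of the members and 8.09% of all genes. A match is a description of sequence, not a binding site shown by these data. The element is known from lysosome gene promoters and the list holds such genes. A higher share was therefore to be foreseen and says nothing about the knockdown. The 27025 genes also include genes not tested on these arrays.

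The sequences are shown for the 7 members that hold the letters, given in capitals, because they span the range from the member that fell most to members that did not pass the test. For *Retreg1* the 250 bases before the most downstream of its 4 annotated starts are given, where the letters begin 190 bases before that start, and the other 3 windows do not hold them. For the others the stretch around the letters is given, in the direction of the gene. *Ctsd* holds the letters at a second place, 245 bases before the start, outside the stretch shown.
Retreg1, chr15:25942429-25942678, plus strand: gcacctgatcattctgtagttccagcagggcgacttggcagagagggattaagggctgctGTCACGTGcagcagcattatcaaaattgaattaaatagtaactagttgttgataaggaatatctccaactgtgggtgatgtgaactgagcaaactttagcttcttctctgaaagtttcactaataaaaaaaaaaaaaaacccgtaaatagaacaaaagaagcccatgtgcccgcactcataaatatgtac
Mcoln1, chr8:3500436-3500491, plus strand: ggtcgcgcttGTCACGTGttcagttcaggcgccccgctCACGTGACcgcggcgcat
Atg3, chr16:45158723-45158773, plus strand: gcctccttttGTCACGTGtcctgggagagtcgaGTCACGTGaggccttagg
Retreg2, chr1:75142704-75142753, plus strand: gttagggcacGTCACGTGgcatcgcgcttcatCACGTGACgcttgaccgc
Lamp1, chr8:13159123-13159150, plus strand: tgccgactggCACGTGACcacatcacgt
Ctsd, chr7:142387908-142387935, minus strand: gcccgcgtctCACGTGACccgttgaggg
Atg7, chr6:114670952-114670979, plus strand: catattggtgGTCACGTGtgcagtaagt

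These 7 genes did not move alike. *Mcoln1* passed as lower with siRNA1 and *Atg3* as lower with siRNA2. *Retreg2*, *Atg7*, *Lamp1* and *Ctsd* passed with neither, at log2 changes of -0.21 to 0.17 for siRNA1 and of -0.11 to 0.11 for siRNA2.

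At the lysosomal membrane *Mcoln1* passed as lower and *Lamp2* as higher with siRNA1, and *Lamp1* did not pass. *Mcoln1*, the calcium channel TRPML1, read 98.3, 99.0, 104 and 98.4% in control, 64.9, 68.4, 70.0 and 77.7% with siRNA1 and 84.2, 82.8 and 93.6% with siRNA2. The 3 groups did not overlap. The change was -0.51 ± 0.08 (SE) with siRNA1 (limma adjusted p = 0.000812) and -0.20 (-0.39 to -0.01; adjusted p = 0.133) with siRNA2, and the siRNAs differed by -0.31 (adjusted p = 0.0242). The call with siRNA1 stood without any 1 array, whereas the difference was lost in the fits that left out array 1, 2 or 3 of siRNA1 or array 3 of siRNA2 (adjusted p = 0.0525 to 0.103).

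*Lamp2*, an abundant lysosomal membrane glycoprotein with splice forms that act in autophagy, was higher with siRNA1. Its brightest probe read 105, 93.2, 97.0 and 105% in control, 128, 126, 134 and 139% with siRNA1 and 104, 99.3 and 106% with siRNA2. The siRNA1 arrays lay above all others, by 0.40 ± 0.07 (SE) over control (limma adjusted p = 0.00250) and 0.35 over siRNA2 (adjusted p = 0.00830). The second probe carries the accession of another *Lamp2* transcript, and it was higher with both siRNAs. It read 105, 108, 91.0 and 96.5% in control, 156, 132, 152 and 148% with siRNA1 and 149, 146 and 139% with siRNA2, with changes of 0.55 ± 0.09 (adjusted p = 0.000736) and 0.53 ± 0.09 (adjusted p = 0.00217). Over the mean of both probes the siRNAs differed by 0.19 (adjusted p = 0.0981), so that call was lost. *Lamp1* gave -0.21 (-0.40 to -0.03; adjusted p = 0.0879) and -0.11 (-0.31 to 0.09).

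**Figure D4:**
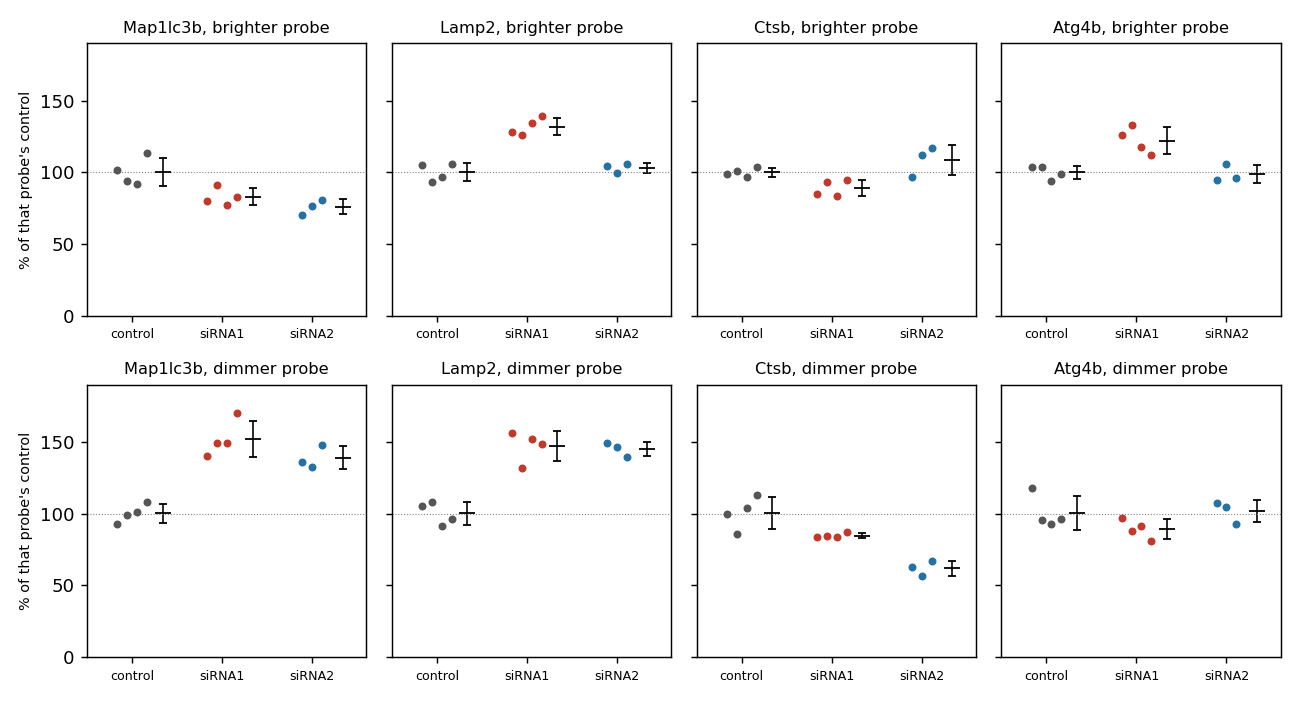
Signal on each array at the brighter (top) and dimmer (bottom) probe of *Map1lc3b*, *Lamp2*, *Ctsb* and *Atg4b*, each in percent of that probe's control level. Points are arrays of control (grey), siRNA1 (red) and siRNA2 (blue), and bars are mean ± SD. The siRNA arrays of *Map1lc3b* lie at 91.2% or lower on one probe and at 133% or higher on the other.

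Among the 7 lysosomal hydrolases and cofactors, *Neu1*, the sialidase, passed with siRNA2. It read 88.9, 99.7, 102 and 111% in control, 67.9, 80.4, 82.6 and 98.9% with siRNA1 and 58.0, 62.3 and 76.0% with siRNA2. The siRNA2 arrays lay below all control arrays, and the siRNA1 arrays overlapped both. The change was -0.62 ± 0.14 (SE) with siRNA2 (limma adjusted p = 0.00958) and -0.29 (-0.57 to -0.01; adjusted p = 0.120) with siRNA1, which was -0.33 with the slide as a block (adjusted p = 0.00895). The second *Neu1* probe passed with both siRNAs, at -0.32 (adjusted p = 0.0406) and -0.60 (adjusted p = 0.00338).

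*Ctsb*, the protease cathepsin B, was another gene whose probes disagreed. The brighter probe read 98.9, 101, 96.4 and 104% in control, 85.2, 93.3, 83.4 and 94.6% with siRNA1 and 97.0, 112 and 117% with siRNA2. It differed between the siRNAs by -0.28 (limma adjusted p = 0.0424) and from control with neither. The dimmer probe read 99.7, 85.4, 104 and 113% in control, 84.0, 84.1, 83.6 and 87.0% with siRNA1 and 62.7, 56.2 and 66.6% with siRNA2. It was lower with siRNA2 by -0.70 ± 0.10 (SE; adjusted p = 0.000819) and differed between the siRNAs the other way, by 0.46 (adjusted p = 0.00785). The mean over both probes differed between the siRNAs by 0.09, and the call at the brighter probe was lost in 9 of the 11 fits without 1 array, each except those without siRNA1 array 4 or siRNA2 array 1 (adjusted p = 0.0513 to 0.160), so no direction is given.

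The other 5 hydrolases and cofactors did not pass. *Ctsl* was the nearest, at -0.33 (-0.60 to -0.07; limma adjusted p = 0.0595) with siRNA1, where the slide block gave an adjusted p of 0.0133, and -0.14 with siRNA2. *Hexa* gave -0.27 (-0.51 to -0.03; adjusted p = 0.0930, and 0.0347 with the slide block) and -0.18 (-0.44 to 0.08). *Ctsd* gave -0.08 (-0.42 to 0.25) and -0.05 (-0.42 to 0.31), and *Psap* 0.08 (-0.10 to 0.26) and 0.11 (-0.09 to 0.30). *Grn*, the progranulin gene, varied most, from 49.1 to 174% in control, 48.7 to 132% with siRNA1 and 67.4 to 236% with siRNA2. Its second probe spread less, at 90.7 to 124%, 81.7 to 106% and 71.4 to 109%, and did not pass either.

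To place the members in their pathway, 113 other autophagy, ER-phagy and lysosome genes were read the same way, of which 103 had a tested probe. With siRNA1 6 were higher and 17 lower, together 22.3%, against 29.3% of all genes. With siRNA2 4 were higher and 17 lower, 20.4%, against 20.2% of all genes. Those lower with both were 3 of the 103 (2.91%), against 5.21% of all genes, and included *Tmem41b* and *Atp6v1d*. None was higher with both, against 3.85% of all genes. *Tmem41b*, an ER protein of autophagosome formation, changed by -0.36 (limma adjusted p = 0.00525) and -0.40 (adjusted p = 0.00672), and *Atp6v1d*, a proton pump subunit, by -0.25 (adjusted p = 0.0304) and -0.34 (adjusted p = 0.0140). The 2 dimmer *Tmem41b* probes did not pass.

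By role, the lysosomal hydrolases and cofactors gave 10 of 34 lower (29.4%) and 0 higher with siRNA1 and 4 lower (11.8%) and 2 higher with siRNA2. Of all genes 18.7% were lower and 10.6% higher with siRNA1, and 12.2% lower and 8.02% higher with siRNA2. The other lysosomal membrane proteins gave 2 higher and 2 lower of 16 with siRNA1 and 4 lower with siRNA2 (25%). Other core autophagy genes gave 1 higher and 2 lower of 17 with siRNA1 and 2 higher and 2 lower with siRNA2. Other cargo receptors gave 2 higher of 9 with siRNA1 and 0 with siRNA2, and 0 lower with either. The 1 other transcription factor tested passed with neither. The subunits of the vacuolar ATPase, the pump that acidifies lysosomes, gave 2 of 16 lower with siRNA1 (12.5%) and 5 of 16 lower with siRNA2 (31.2%), beside the same shares of all genes. The other ER-phagy receptors and partners gave 1 higher and 1 lower of 10 with siRNA1 and 2 lower with siRNA2. Lower with both siRNAs were 0 of the 10, against 5.21% of all genes. With siRNA1 the atlastin gene *Atl1* was lower (-0.83, limma adjusted p = 0.000122), and with siRNA2 its relative *Atl2* (-0.81, adjusted p = 0.00532). Neither of these genes passed as lower with the other siRNA. Both encode GTPases that fuse ER membranes, and they are named here after their values were seen.

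Past both the test and a fold of 2 was 1 of these genes with siRNA1 (0.971%) and 3 with siRNA2 (2.91%), all lower, near the 2.23% and 1.78% of all genes lower by that rule. They are likewise named after their values were seen. *Tpcn1*, a cation channel of endosomes and lysosomes, read 33.6, 38.9, 44.8 and 52.1% with siRNA1, against 73.1 to 115% in control (-1.26, limma adjusted p = 0.000567). *Ostm1*, a partner of the lysosomal chloride transporter, read 21.8, 18.0 and 19.6% with siRNA2, against 91.0 to 112% in control and 93.8 to 102% with siRNA1 (-2.34, adjusted p = 3.07e-07, with a difference between the siRNAs of 2.31). *Atp6v1a*, the catalytic subunit of the proton pump, read 47.3, 58.1 and 42.6% with siRNA2 (-1.03, adjusted p = 0.000294) and 76.7 to 104% with siRNA1. *Slc17a5*, the sialic acid exporter, read 36.5, 89.7 and 31.6% with siRNA2 (-1.09, adjusted p = 0.0219), so array 2 stood near control.

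**Figure D5:**
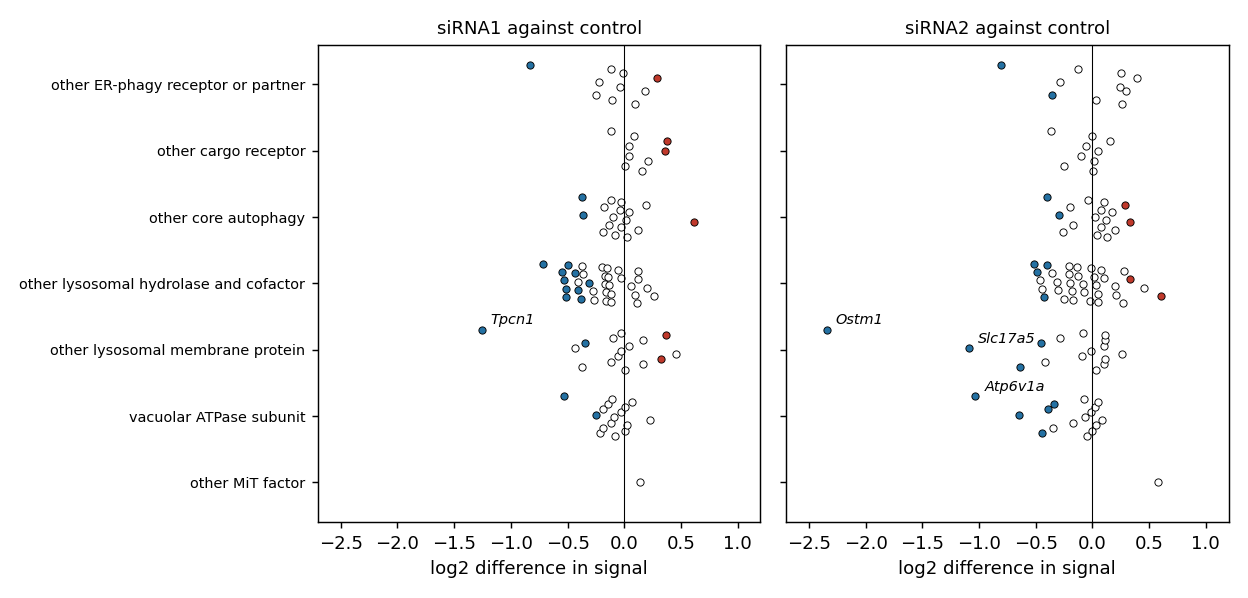
Log2 difference in signal against control at the brightest probe for the 103 other pathway genes tested, by role, with siRNA1 (left) and siRNA2 (right). Filled points passed the test (red higher, blue lower), open points did not, and names mark a difference of at least 1 log2 unit. The furthest point is *Ostm1* at -2.34 with siRNA2.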

How the data were processed

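RNA (300 ng per array, Cyanine-3) from 11 MLTC samples was read on single-color arrays. Per the file headers and labels, the authors made the deposited signal intensity with Agilent Feature Extraction (9.5.1.1), which subtracts background within an array and does not normalize between arrays. A deposited table of the authors' group averages, which holds a selected set of probes, was not used. The design was annotated on an older mouse build, so no coordinates of probes are given. Here, intensities were converted to log2 minus each array's 75th percentile, outlier-marked spots were left out, and spots of a probe were averaged. Of 41174 probes, 24375 were named through RefSeq accessions. A probe entered the test where 1 group or more had it well above background throughout (24250 probes). The fit used limma (3.58.1, R 4.3.3) with 3 groups, with Benjamini-Hochberg adjustment over all of them. A gene is given by its brightest tested probe, other probes where they differ. Intervals are 95% confidence intervals. Named are members past the test in any comparison and, of the other pathway genes, those past it the same way with both siRNAs, apart from a result that is not reported here. Alternatives were normexp (offset 50), quantile and median scaling, other filters on dim probes, slide or replicate number as a block, separate fits, other tests, the mean over probes, and each array left out. Normexp with extreme local backgrounds replaced was added after seeing the data. The members, lists and tests were chosen with earlier results of these data known. The fit was tested on simulated data. Deposited columns of no mapped sample: 0. The number of arrays limits the precision.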

Additional observations from a re-analysis of the deposited data

Results flagged for a closer look

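In 10 members the effect of siRNA1 and that of siRNA2 against the shared control arrays differed by limma at an adjusted p of 0.05 or less. On the log2 scale, as siRNA1 minus siRNA2, the difference was -0.82 for *Wipi1*, -0.42 for *Atg16l1*, -0.31 for *Mcoln1* and -0.28 for *Ctsb*. It was 0.64 for *Ulk1*, 0.62 for *Optn*, 0.50 for *Ulk2*, 0.35 for *Lamp2*, 0.32 for *Atg3* and 0.31 for *Atg4b*. These are values at the brightest probe. Over the mean of all tested probes *Ctsb* turned sign, and *Atg4b*, *Lamp2* and *Atg3* no longer passed. Of all genes, 26.3% differed in this way. *Wipi1* was the member in which the siRNA arrays lay on opposite sides of all control arrays.

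Among the 4 control arrays of *Mcoln1*, array 3 (104% of control) stood apart, with a gap to its neighbour of 0.891 of the group's range. Chance sets about 1 in 20 groups apart in this way.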

How the results depend on the processing

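The counts below are in the order siRNA1, siRNA2 and siRNA1 against siRNA2 for the members (8, 8 and 10), then siRNA1 and siRNA2 for the other pathway genes (23 and 21). Normexp gave 0, 0, 0, 1 and 1, although with extreme local backgrounds replaced all 26 member calls kept their side of the threshold. Without adjustment the methods' t-test gave 14, 14, 14, 38 and 35, and with adjustment 5 members between the siRNAs. Median scaling gave 6 (3 higher), 5 (0 higher), 6 (5 higher), 15 and 13 (1 higher). No filter on dim probes gave 5 members with siRNA1 and 4 between the siRNAs. The slide block gave 13 members with siRNA1 and 34 other genes with siRNA2. A fold of 2 as well gave 0, 0, 0, 1 and 3. Leaving out 1 array gave 6 to 8, 5 to 8, 5 to 9, 17 to 26 and 13 to 21. The mean over all tested probes turned the sign of *Map1lc3b* with siRNA1 (0.16) and siRNA2 (0.036) and of *Ctsb* between the siRNAs (0.087), by averaging probes that disagree, and it ended the calls of *Atg4b* and, between the siRNAs, of *Lamp2* and *Atg3*. The cause of the other shifts was not tested. The median log2 change of all probes was -0.05 with siRNA1, -0.01 with siRNA2 and -0.04 between the siRNAs, and under normexp it was 0.22, 0.17 and 0.11.

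Of the same-numbered pairs of arrays 7 of 10 correlated above 0.1 (median 0.30, from -0.18). Pairs on the same slide did so in 10 of 13 (median 0.30), and pairs on different slides in 5 of 27 (median -0.12). Replicate number and slide overlap in part, so their shares cannot be told apart. The main fit used neither as a block. With the replicate block the counts were 11, 9, 11, 31 and 31. All 26 member calls kept their side of the threshold, and the rise in the counts came from further calls. Dim spots limit *Retreg1*, whose second probe was above background on no siRNA array.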
